A study of Chlorocebus aethiops with 8 samples.

Results

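Genes that sense foreign RNA or that answer interferon were followed in COS cells, whose RNA helicase A (RHA), the product of DHX9, was targeted by siRNAs, and in cells given scrambled siRNAs. The 9 genes asked for were OAS1, IFIH1, EIF2AK2, ISG15, MX1, IFIT1, TLR3, IRF3 and IRF1. Members were all probe sets with exactly 1 of these symbols in the probe annotation, which gave 13 of 52865 probe sets, for 8 of the 14133 genes that have a probe set with 1 symbol. No probe set was listed under EIF2AK2, so that gene was not analysed here.

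COS cells are a fibroblast-like line made from African green monkey kidney by transformation with SV40. Their RNA was hybridised to arrays of rhesus macaque probes, so each probe set reads a transcript of a related species. There were 4 groups of 2 arrays: polysomal RNA under RHA siRNA, polysomal RNA under control siRNA, cytoplasmic RNA under RHA siRNA and cytoplasmic RNA under control siRNA. Per the labels, the RHA siRNAs were directed to nucleotides 2701-2721 and 2784-2803 in the coding part of the human transcript. Scrambled siRNAs served as the control, and both kinds were used at 0.5 nM. Each culture of 7 plates (100 mm) spent 4 h in serum-free medium and 24 h with 10% serum, was split, and 24 h later received the same siRNA again for a further 24 h. Polysomes came from sucrose gradients of cytoplasmic lysates, and 25 ng of RNA was amplified for each array. All 4 groups were thus transfected with siRNA, and no untransfected cells were among the arrays. The comparisons therefore ask whether loss of RHA moved these genes beyond scrambled siRNA, and what transfection itself did could not be measured.

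As background, double-stranded RNA is sensed in the cytosol by RIG-I-like receptors such as MDA5, the product of IFIH1, and in endosomes by TLR3. Both activate the transcription factor IRF3, which switches on interferon beta. Secreted interferon then acts through JAK-STAT signalling to induce effectors such as OAS1, ISG15, MX1 and IFIT1, while PKR, the product of EIF2AK2, is a kinase that double-stranded RNA activates and that stops translation through eIF2alpha. RHA is itself a helicase that binds double-stranded RNA, and siRNA duplexes can set off these sensors in some cells.

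Values are the deposited intensities, a linear brightness for each probe set, and array medians lay between 19.3 and 20.8. Tests used the log2 scale and the 26383 probe sets whose mean log2 was above 4.32, an intensity of 19.9. Of the 13 member probe sets, 11 passed that limit and the other 2, both for OAS1, were too dim. The 4 arrays of replicate number 1 are called set 1 and those of number 2 set 2. More probe sets differed between the sets than between the siRNAs, so values are also given within each set. Hybridisation controls, transcripts added to every sample, averaged 10.3 to 11.1 on the log2 scale in set 1 and 11.9 to 12.1 in set 2. Of 10 fibroblast markers 8 had a probe set and 7 were above the limit, with mean log2 values from 4.90 (THY1) to 12.3 (VIM), and COL1A2 was below it at 3.56. Of 12 kidney tubule markers 6 were above it, the brightest being AQP1 (10.4) and EPCAM (8.41), while CDH1, LRP2 and UMOD were below. Of 12 leukocyte markers listed, 9 had a probe set and 5 of these were above the limit. They were CD68 (7.15), LYZ (5.82), CD74 (4.88), CD14 (4.46) and CD79A (4.455). PTPRC, the marker that defines leukocytes, averaged 3.17 and was below the limit, as were CSF1R, ITGAM and NKG7.

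DHX9 was checked first with its one probe set above the limit, MmunewRS.268.1.S1_s_at. Its intensity was 97.2 and 269 in the polysomal RHA siRNA arrays of sets 1 and 2, against 359 and 477 in the polysomal control arrays. The cytoplasmic arrays had 130 and 254 under RHA siRNA and 244 and 342 under control siRNA. By this probe set the target was lower under RHA siRNA in all 4 within-set comparisons. Over both fractions it was at 49.5% of control (log2 -1.01, SE 0.42), with an adjusted p of 1 in limma, or 0.162 when the model also holds the set (the replicate block). By this probe set the knockdown was thus partial, and DHX9 itself was not called. DHX9 had 4 probe sets in all. Those not above the limit were at 63.05%, 80.48% and 99.83% of control over both fractions and were not tested. The untested ones averaged intensities of 19.93, 19.46 and 17.15, so their percentages say little about the extent of the knockdown. The tested estimate rests on 1 of the 4.

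No member gene passed the test for an effect of RHA siRNA. In limma with Benjamini-Hochberg adjustment, 0 of 11 member probe sets were called over both fractions, where 0 of 26383 probe sets (0%) were called. At an unadjusted p under 0.05 the counts were 0 of 11 members and 540 of all probe sets (2.05%). With the replicate block, 0 members and 2 probe sets (0.00758%) were called after adjustment. At an unadjusted p under 0.05 the block gave 2 members, OAS1 and IFIH1, against 3156 of all probe sets (12%). That level was thus common among the probe sets tested.

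The 8 genes did not move together. Taking the brightest probe set of each, 3 were above 0 and 5 below over both fractions, with a median log2 fold change of -0.04 beside 0.03 over all probe sets tested. In polysomal RNA 3 were above 0 and 5 below (median -0.06 against 0.01 over all), and in cytoplasmic RNA 4 were above and 4 below (0.03 against 0.05). Polysomal RNA of set 1 had 4 higher and 4 lower, set 2 had 5 and 3, cytoplasmic RNA of set 1 had 5 and 3, and set 2 had 4 and 4. Medians within these 4 comparisons ran from -0.02 to 0.17. OAS1 and IFIH1 were the genes with 1 direction throughout, and they went opposite ways.

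**Figure D1:**
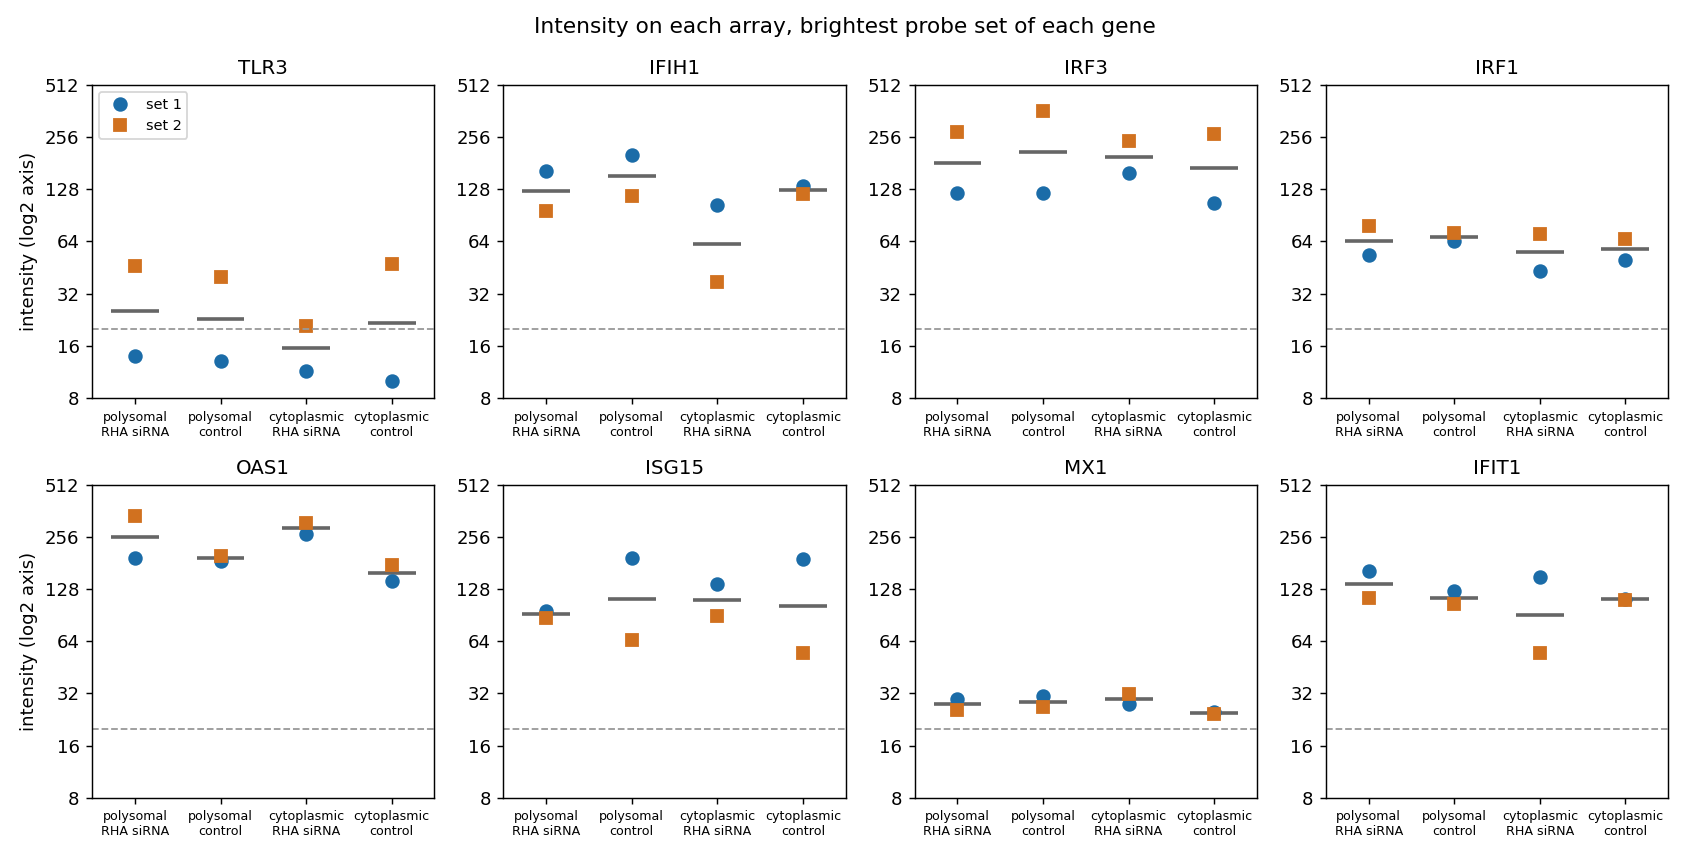
Intensity of the brightest probe set of each of the 8 genes on every array (log2 axis), with circles for set 1, squares for set 2 and a bar at the mean of the log2 values of a group; the dashed line is the limit for testing, 19.9. TLR3 and IRF3 split by set in every group, IFIH1 is lowest on the cytoplasmic RHA siRNA array of set 2 (37.6), and over both fractions the RHA siRNA and control arrays of every gene overlap.

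Among the sensors, TLR3 detects double-stranded RNA in endosomes. Its probe set MmugDNA.5783.1.S1_at had intensities of 13.9 and 46.0 in polysomal RNA under RHA siRNA (sets 1 and 2), against 13.1 and 39.9 under control siRNA. In cytoplasmic RNA it had 11.4 and 20.9 under RHA siRNA, against 10.0 and 47.5 under control siRNA. All 4 arrays of set 1 were below the limit of 19.9 and all 4 of set 2 were above it, whatever the siRNA. The probe set thus passed the limit through set 2, and its ratios in set 1 are between dim values. Its log2 fold change over both fractions was -0.18 (SE 0.69, limma's 95% interval -1.85 to 1.495). Within sets it was 0.08 and 0.20 in polysomal RNA and 0.19 and -1.19 in cytoplasmic RNA, so 3 of the 4 comparisons lay close to 0 and one was low. Without the cytoplasmic RHA siRNA array of set 2, with the block, the value over both fractions was 0.07.

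IFIH1 encodes MDA5, the cytosolic sensor of long double-stranded RNA. Probe set MmugDNA.36297.1.S1_at read 164 and 96.4 in polysomal RNA under RHA siRNA, against 202 and 117 under control siRNA. Cytoplasmic RNA gave 103 and 37.6 under RHA siRNA, against 134 and 120 under control siRNA. Every RHA siRNA array was below the control array of its own set and fraction. In cytoplasmic RNA both were below both controls, while the polysomal groups overlapped. How many of all probe sets separated so in a single fraction was not counted, so no share is set beside it. On the log2 scale the means were 6.97 ± 0.54 under RHA siRNA and 7.26 ± 0.56 under control siRNA in polysomal RNA, and 5.96 ± 1.03 and 6.99 ± 0.11 in cytoplasmic RNA (SD, n = 2 each). IFIH1 was at 63.4% of control over both fractions (log2 -0.66, SE 0.41, 95% interval -1.65 to 0.34), with an adjusted p of 1 in limma. With the block the interval was -1.18 to -0.14 and the adjusted p 0.308.

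The 4 within-set log2 differences of IFIH1 were -0.31 and -0.28 in polysomal RNA and -0.37 and -1.68 in cytoplasmic RNA. Being lower in all 4 was shared by 2373 of 26383 probe sets (8.99%), and IFIH1 was the 1 member among them. The difference was widest on one array, cytoplasmic RHA siRNA of set 2. Without that array, and with the block, the log2 fold change over both fractions was -0.44 (adjusted p 0.463 in limma), and with each other array left out it lay between -0.88 and -0.45. The direction was thus kept, and its size depended on the array.

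**Figure D2:**
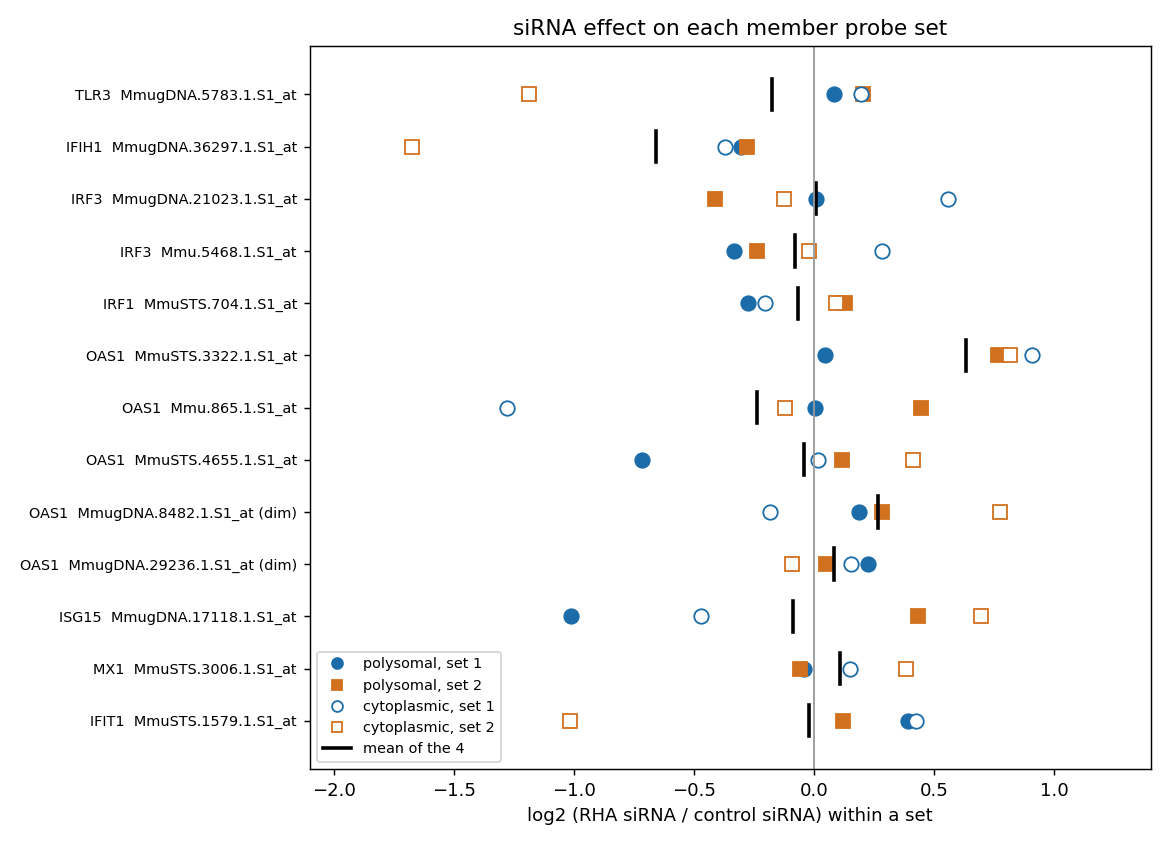
Log2 ratio of RHA siRNA over control siRNA for the 13 member probe sets within each set and fraction (filled, polysomal; open, cytoplasmic; circles, set 1; squares, set 2), with a bar at the mean of the 4. IFIH1 lies left of 0 in 4 of 4 comparisons and OAS1 probe set MmuSTS.3322.1.S1_at right of 0 in 4 of 4, while ISG15 is left in set 1 and right in set 2.

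Of the transcription factors, IRF3 is present before infection and is activated by phosphorylation. Its brighter probe set, MmugDNA.21023.1.S1_at, had 122 and 273 in polysomal RNA under RHA siRNA, against 121 and 364 under control siRNA. Cytoplasmic intensities were 158 and 243 under RHA siRNA, against 107 and 266 under control siRNA. Set 2 was above set 1 in all 4 groups, and the siRNA groups overlapped. Its log2 fold change over both fractions was 0.01 (SE 0.52, 95% interval -1.25 to 1.26). The second, dimmer IRF3 probe set had 32.6 and 49.1 in polysomal RNA under RHA siRNA, against 41.2 and 57.9 under control siRNA, and 39.8 and 58.8 in cytoplasmic RNA under RHA siRNA, against 32.7 and 59.7 under control siRNA. It had a log2 fold change of -0.08 (SE 0.32). The pair tracked each other over the 8 arrays (Pearson's r 0.909, a description that includes the difference between sets).

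IRF1 is a transcription factor that interferon gamma induces strongly. Its probe set MmuSTS.704.1.S1_at had 53.4 and 78.6 in polysomal RNA under RHA siRNA, against 64.5 and 72.0 under control siRNA. It had 43.5 and 70.8 in cytoplasmic RNA under RHA siRNA, against 50.2 and 66.4 under control siRNA. The RHA siRNA arrays of set 1 were a little below their controls and those of set 2 a little above. Over both fractions the log2 fold change of IRF1 was -0.07 (SE 0.28, 95% interval -0.74 to 0.61).

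Among the effectors, OAS1 makes 2'-5' oligoadenylates that activate the ribonuclease RNase L. It had 5 probe sets, of which MmuSTS.3322.1.S1_at was the brightest member of all. That probe set read 193 and 339 in polysomal RNA under RHA siRNA, against 186 and 200 under control siRNA, and 265 and 309 in cytoplasmic RNA under RHA siRNA, against 142 and 176 under control siRNA. Each RHA siRNA array was above its own control, and in cytoplasmic RNA both were above both controls. The share of all probe sets with that separation was not counted. Log2 means were 7.997 ± 0.58 under RHA siRNA and 7.59 ± 0.07 under control siRNA in polysomal RNA, and 8.16 ± 0.16 and 7.30 ± 0.22 in cytoplasmic RNA (SD, n = 2 each).

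Over both fractions this OAS1 probe set was 1.55-fold of control (log2 0.63, SE 0.27, 95% interval -0.01 to 1.28). Its adjusted p in limma was 1. With the block the interval was 0.21 to 1.055 and the adjusted p 0.242. In cytoplasmic RNA alone it was 1.82-fold of control (log2 0.86, SE 0.38), with an adjusted p of 0.320 with the block. Within sets the log2 difference was 0.05 and 0.76 in polysomal RNA and 0.91 and 0.81 in cytoplasmic RNA. A probe set higher in all 4 was seen in 2588 of 26383 (9.81%), and this OAS1 probe set was the 1 member among them. With the block and each array left out in turn, its value over both fractions stayed between 0.48 and 0.78.

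None of the other 4 OAS1 probe sets was higher in all 4 comparisons. The second brightest had 69.1 and 56.2 in polysomal RNA under RHA siRNA, against 69.0 and 41.2 under control siRNA, and 48.5 and 54.1 in cytoplasmic RNA under RHA siRNA, against 118 and 58.8 under control siRNA. In cytoplasmic RNA both of its RHA siRNA arrays were thus below both controls, opposite to the brightest OAS1 probe set. Its log2 fold change over both fractions was -0.24 (SE 0.32). MmuSTS.4655.1.S1_at had 21.6 and 30.8 in polysomal RNA under RHA siRNA, against 35.5 and 28.4 under control siRNA, and 25.5 and 27.5 in cytoplasmic RNA under RHA siRNA, against 25.2 and 20.7 under control siRNA. Its log2 fold change was -0.04 (SE 0.24), and in polysomal RNA its groups overlapped. In cytoplasmic RNA both of its RHA siRNA arrays were above both controls. The share of all probe sets with either separation was not counted. The 2 dim probe sets, MmugDNA.8482.1.S1_at and MmugDNA.29236.1.S1_at, ran from 8.08 to 13.8 and from 7.17 to 9.62 over the 8 arrays. Their log2 fold changes of 0.26 and 0.08 were not tested. The brightest and the second brightest OAS1 probe sets had a Pearson's r of -0.602 over the 8 arrays, and over all 10 pairs of OAS1 probe sets r ran from -0.602 to 0.374. The OAS1 difference that ran one way in all 4 comparisons thus rests on 1 probe set of 5.

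ISG15 encodes a ubiquitin-like protein that is attached to other proteins after interferon. Its probe set MmugDNA.17118.1.S1_at had 95.9 and 87.6 in polysomal RNA under RHA siRNA, against 194 and 65.0 under control siRNA. In cytoplasmic RNA it had 137 and 89.1 under RHA siRNA, against 190 and 55.0 under control siRNA. In set 1 the RHA siRNA arrays were below their controls in both fractions, and in set 2 they were above them in both. The within-set log2 differences were -1.01 and 0.43 in polysomal RNA and -0.47 and 0.70 in cytoplasmic RNA, which gave -0.09 over both fractions (SE 0.53, 95% interval -1.36 to 1.18). The interaction of siRNA with set was 1.31 on the log2 scale (SE 0.36), with an unadjusted p of 0.00564 in limma and an adjusted p of 0.350. No probe set passed that interaction test (0% of 26383), and at an unadjusted p under 0.05 it gave ISG15 alone of the members, beside 10.3% of all probe sets. The value of ISG15 over both fractions is thus the mean of opposite differences in the sets.

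MX1, an interferon-induced GTPase that restricts viruses, was dim and even. Its probe set MmuSTS.3006.1.S1_at had 29.9 and 25.6 in polysomal RNA under RHA siRNA, against 30.7 and 26.6 under control siRNA. Cytoplasmic values were 27.7 and 31.9 under RHA siRNA, against 24.9 and 24.4 under control siRNA. All 8 arrays lay just above the limit, and the polysomal groups overlapped. Both cytoplasmic RHA siRNA arrays were above both controls, a separation whose share over all probe sets was not counted. MX1 and the second brightest OAS1 probe set were the 2 members whose direction was the same in both sets but opposite between the fractions. Of all probe sets, 9.04% did so. MX1 had the narrowest interval of the 8 genes, with a log2 fold change of 0.11 over both fractions (SE 0.21, 95% interval -0.40 to 0.62). The upper end of that interval is 1.54-fold of control. It describes the intensity of a dim probe set, and how closely that intensity follows MX1 RNA was not tested.

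IFIT1 binds viral RNA that lacks the host's cap methylation. Its probe set MmuSTS.1579.1.S1_at had 163 and 114 in polysomal RNA under RHA siRNA, against 125 and 105 under control siRNA. In cytoplasmic RNA it had 150 and 54.9 under RHA siRNA, against 112 and 111 under control siRNA. It was higher under RHA siRNA in 3 of 4 within-set comparisons, with log2 differences of 0.39, 0.12 and 0.42, and had -1.02 in cytoplasmic RNA of set 2. Over both fractions the log2 fold change was -0.02 (SE 0.37, 95% interval -0.91 to 0.87). Without the cytoplasmic RHA siRNA array of set 2, with the block, IFIT1 was at 0.28.

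TLR3, IFIH1 and IFIT1 shared their lowest within-set value on that array. These 3 of the 11 member probe sets were at least 2-fold lower in cytoplasmic RNA of set 2, where 4.48% of all tested probe sets were. In the other within-set comparisons 1 member was at least 2-fold lower in polysomal RNA of set 1 (ISG15, 3.25% of all), 1 in cytoplasmic RNA of set 1 (the second brightest OAS1 probe set, 3.02%) and none in polysomal RNA of set 2 (0.527%). No member was at least 2-fold higher in any of the 4, where 1.85% and 1.86% of all probe sets were so in polysomal RNA and 12% and 2.34% in cytoplasmic RNA of sets 1 and 2. On the array in question the hybridisation controls averaged 12.1, the 3' probe sets of actin and GAPDH exceeded the 5' ones by 5.18 on the log2 scale (3.54 to 6.07 on the others), and its median r to the arrays of its set was 0.976. Their part in the low values was not tested.

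The intervals of the comparison over both fractions show how precise these estimates were. For the brightest probe set of each gene, the upper end of limma's 95% interval was 2.82-fold for TLR3, 2.43-fold for OAS1, 2.40-fold for IRF3 and 2.26-fold for ISG15. It was 1.82-fold for IFIT1, 1.54-fold for MX1, 1.53-fold for IRF1 and 1.26-fold for IFIH1. The spread behind these values includes the difference between the sets. With the replicate block the upper ends were 2.08-fold for OAS1, 1.49-fold for ISG15, 1.47-fold for IFIT1, 1.41-fold for MX1, 1.38-fold for IRF3, 1.29-fold for TLR3, 1.26-fold for IRF1 and 0.909-fold for IFIH1. Each is the upper end of an interval for 1 probe set, unadjusted for the number of genes, and not a limit of detection. For IFIH1 that end was below control with the block, where its adjusted p in limma was 0.308. Whether fewer cells of a kind or less RNA per cell lies behind a lower value cannot be told apart in bulk RNA.

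Several members differed more between the sets than between the siRNAs. With the block, 7618 probe sets (28.9%) were higher in set 2 and 5917 (22.4%) lower at an adjusted p under 0.05, and 5 of the 11 members were among them. TLR3 is counted there, but its set 1 arrays were below the limit (10.0 to 13.9) and those of set 2 above it (20.9 to 47.5), so no fold is given for it. The 2 IRF3 probe sets were 2.25-fold and 1.55-fold higher (adjusted p 0.00203 and 0.0137 in limma). IFIH1 and ISG15 were lower in set 2, by log2 values of -0.79 (SE 0.23, adjusted p 0.0198) and -1.03 (SE 0.29, adjusted p 0.0183). MX1 was level between the sets (-0.06) and the brightest OAS1 probe set was not called (0.36, adjusted p 0.132). These differences are between replicates and are means over both siRNAs and both fractions. For the called members the direction was the same in all 4 groups, but the size was not. Polysomal ISG15 was 95.9 in set 1 and 87.6 in set 2 under RHA siRNA, against 194 and 65.0 under control siRNA. Cytoplasmic IFIH1 was 103 and 37.6 under RHA siRNA, against 134 and 120 under control siRNA.

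The next question was how polysomal and cytoplasmic intensities compared, and whether their ratio differed under RHA siRNA. Since 25 ng of RNA was amplified for each array, the ratio is relative. It gives no amount of RNA on polysomes. Over both siRNAs, by the brightest probe set, 7 of the 8 genes (87.5%) were higher in polysomal than in cytoplasmic RNA. Of all probe sets tested, 61.7% were. For OAS1 and IRF3 the direction depended on the probe set. Their brightest were at log2 0.06 and 0.10, and their second brightest at -0.18 and -0.06. OAS1 probe set MmuSTS.4655.1.S1_at was at 0.22, and the dim OAS1 probe sets at -0.08 and -0.09. The median log2 of the 8 genes was 0.17 beside 0.07 over all. In limma 0 of 11 members and 0 of 26383 probe sets (0%) were called, and 0.224% of all and no member had an unadjusted p under 0.05. With the block that p was under 0.05 for IFIH1 alone of the members and for 4.02% of all. IFIH1 was farthest to the polysomal side (log2 0.65, SE 0.41, adjusted p 0.858 with the block), followed by TLR3 at 0.39 and IFIT1 at 0.31, and ISG15 was at -0.07. In set 2 the log2 ratios of IFIH1, TLR3 and IFIT1 were 1.36, 1.14 and 1.05 under RHA siRNA. Under control siRNA in that set they were -0.04, -0.25 and -0.09. In set 1 they lay between 0.12 and 0.66 under both siRNAs. IRF1 was higher in polysomal RNA in all 4 comparisons, by 0.29 and 0.15 under RHA siRNA and 0.36 and 0.12 under control siRNA, as 8.67% of all tested probe sets were, and no member was lower in all 4 (6.27% of all).

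The change in polysome loading is the siRNA effect in polysomal RNA minus that in cytoplasmic RNA. It was called for 0 of 11 members and 0 of 26383 probe sets (0%), with 0 members and 0.174% of all at an unadjusted p under 0.05, or 0 members and 3.97% of all with the block. Among the 8 genes 3 were above 0 and 5 below, with a median of -0.17 beside -0.02 over all. IFIH1 had 0.73 (SE 0.83), TLR3 0.64 and IFIT1 0.55 on the log2 scale, and these were the genes low on the cytoplasmic RHA siRNA array of set 2. Within set 1 the polysomal over cytoplasmic log2 ratio of IFIH1 was 0.66 under RHA siRNA and 0.60 under control siRNA, while in set 2 it was 1.36 and -0.04. For the brightest OAS1 probe set the ratio in set 1 was -0.46 under RHA siRNA and 0.40 under control siRNA, and in set 2 it was 0.13 and 0.18. For IFIH1 the ratios under the siRNAs thus differed in set 2 and were close in set 1. For the brightest OAS1 probe set they differed in set 1 and were close in set 2. The second brightest OAS1 probe set went the other way, with 0.51 under RHA siRNA and -0.77 under control siRNA in set 1. In set 2 its ratios were 0.06 and -0.51. Among the tested OAS1 probe sets its change in loading was 0.92 (SE 0.65), against -0.455 for the brightest and -0.51 for MmuSTS.4655.1.S1_at.

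**Figure D3:**
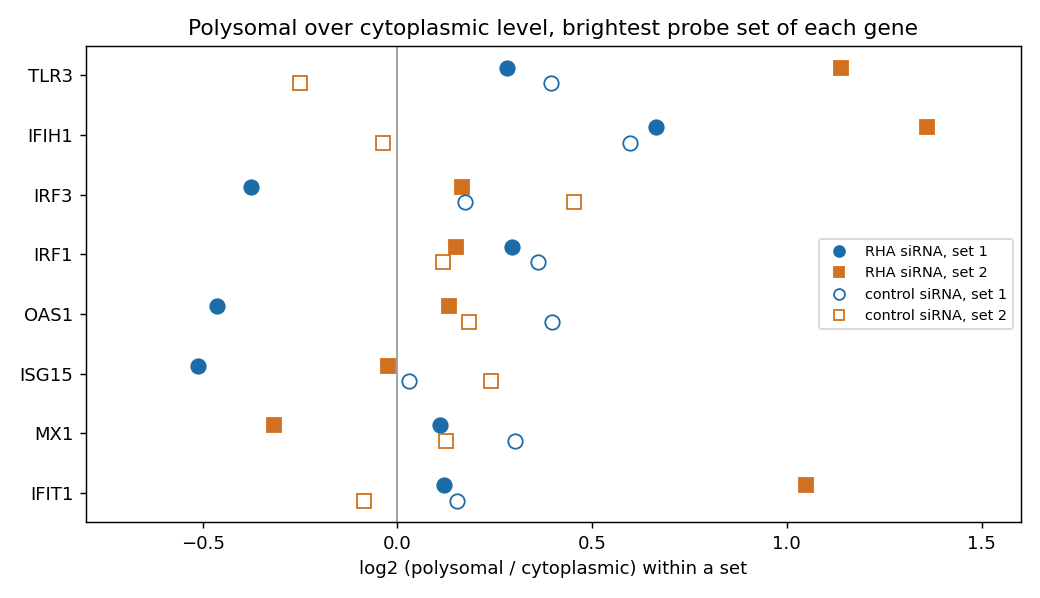
Log2 ratio of polysomal over cytoplasmic intensity for the brightest probe set of each gene, within each set (filled, RHA siRNA; open, control siRNA; circles, set 1; squares, set 2). TLR3, IFIH1 and IFIT1 have their highest ratio under RHA siRNA in set 2 (1.14, 1.36 and 1.05), and IRF1 is right of 0 in all 4.

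In the single fractions, too, no member passed the test. In polysomal RNA 0 of 11 members and 0 of 26383 probe sets (0%) were called in limma, with no member and 0.519% of all at an unadjusted p under 0.05. Cytoplasmic RNA gave 0 of 11 members and 0 of 26383 (0%), with no member and 1.61% of all at an unadjusted p under 0.05. With the block no member reached that level in polysomal RNA (5.06% of all probe sets did), and OAS1 and IFIH1 did in cytoplasmic RNA, beside 12% of all. No member had all 4 RHA siRNA arrays above, or all 4 below, the 4 control arrays, an arrangement seen in 1.43% and 1.38% of probe sets.

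Other genes of the pathway were read as lists, each gene by its brightest probe set. Of 27 symbols for RNA sensors and adaptors (older names included), 20 had a probe set and 15 were tested, of which 8 were above 0 and 7 below over both fractions (median 0.04, against 0.03 over all tested) and 0 were called. RIGI, ZBP1, CGAS, TLR4 and TLR8 were below the limit. TRAF6, a ubiquitin ligase downstream of Toll-like receptors, had a log2 fold change of 0.39 (SE 0.23) and was higher in all 4 within-set comparisons. PRKRA, an activator of PKR, had 0.58 (SE 0.35), with a within-set difference of 1.89 in cytoplasmic RNA of set 1 and of at most 0.36 in each other comparison. STING1, an adaptor for DNA sensing, had -0.50 (SE 0.50) and was lower in all 4. IRF7, which amplifies the interferon response, had -0.35 (SE 0.31). In all, 3 of the 15 (20%) were higher in all 4 within-set comparisons (TRAF6, PRKRA and the adaptor TRAF3), beside 9.81% of all probe sets, and 1 (6.67%) was lower in all 4, beside 8.99%.

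Interferons, their receptors and JAK-STAT genes were mostly too dim to be tested. Of 22 symbols 13 had a probe set and 6 were tested, with 3 above 0 and 3 below (median -0.01) and 0 called. IFNB1, IFNG, IFNK and IFNL1 were all below the limit, with mean log2 values of 3.45, 3.27, 2.83 and 3.61, as were STAT2, IRF2 and SOCS3. The kinases JAK2 and TYK2 had -0.20 (SE 0.22) and 0.22 (SE 0.32). SOCS1, a feedback inhibitor, had 0.14 (SE 0.78), and the receptor gene IFNLR1 had -0.03 (SE 0.33).

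No other interferon-stimulated gene was called. Of 46 symbols 36 had a probe set and 29 were tested, with 13 above 0 and 16 below over both fractions (median -0.04, against 0.03 over all) and 0 called with or without the block. In polysomal RNA 10 were above and 19 below (median -0.13), and in cytoplasmic RNA 16 were above and 13 below (median 0.04). IFIT3, a partner of IFIT1, had intensities of 174 and 85.7 in polysomal RNA under RHA siRNA, against 213 and 126 under control siRNA. In cytoplasmic RNA IFIT3 had 169 and 54.8 under RHA siRNA, against 226 and 117 under control siRNA. It was lower in each within-set comparison (log2 -0.59, SE 0.49, adjusted p 1 in limma, 0.294 with the block), and its own lowest value was again on the cytoplasmic RHA siRNA array of set 2.

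TRIM21, an antibody-binding ubiquitin ligase, had a log2 fold change of -0.50 (SE 0.22), SAMD9L, a restriction factor, -0.47 (SE 0.26), and DTX3L, a ubiquitin ligase that pairs with PARP9, -0.29 (SE 0.22). In all, 6 of the 29 (20.7%) were lower in all 4 within-set comparisons (TRIM21, DTX3L, IFIT3, IFI35, ISG20 and PARP12), beside 8.99% of all probe sets, and 0 were higher in all 4, beside 9.81%. Here the count is a description of a list chosen with earlier results known. With the block and each array left out in turn, 9 to 14 of the 29 were above 0. MX2, OAS2, OASL, GBP1, CXCL10, EPSTI1 and TRIM22 were below the limit.

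**Figure D4:**
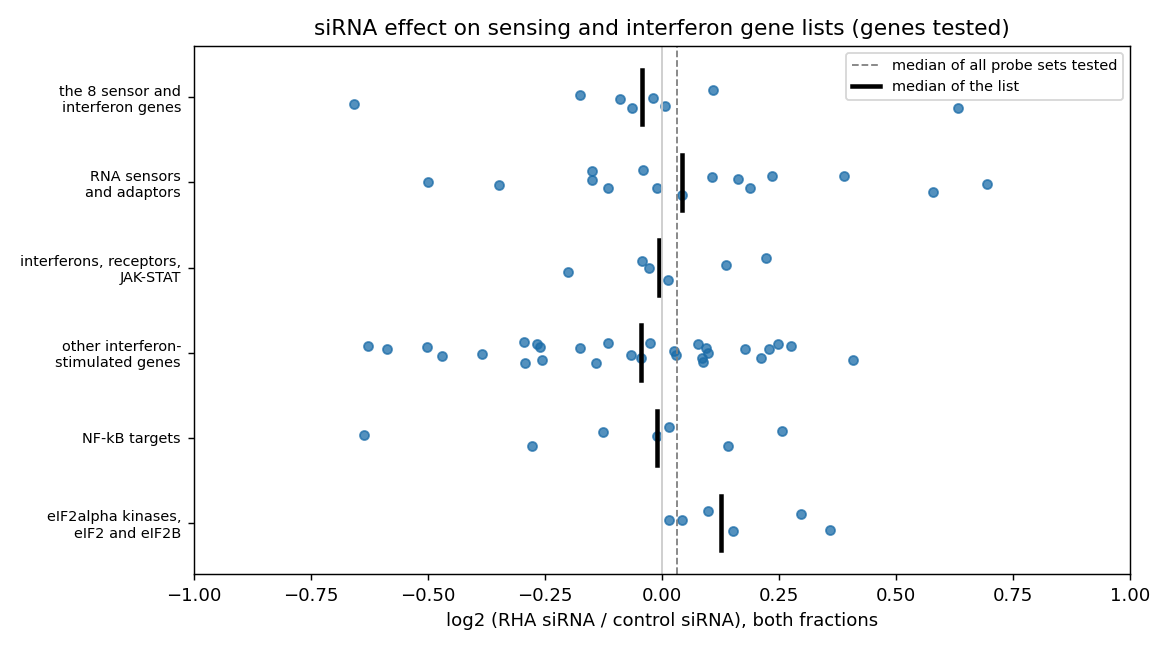
Log2 fold change of RHA siRNA over control siRNA, mean of both fractions, for each tested gene (points) of the 8 genes and of 5 related lists, with a bar at the median of a list and a dashed line at the median of all probe sets tested (0.03). Medians of the lists run from -0.04 to 0.13, and no point passed the test.

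Inflammatory and translation branches of the response gave no call either. Of 20 symbols for NF-kB targets 16 had a probe set and 7 were tested (3 above 0, 4 below, median -0.01), while IL6, TNF, CXCL8, CCL2 and 5 more were below the limit. BIRC3, an inhibitor of apoptosis, had 43.9 and 84.3 in polysomal RNA under RHA siRNA, against 82.5 and 90.2 under control siRNA. Its cytoplasmic values were 38.9 and 53.2 under RHA siRNA, against 70.9 and 84.3 under control siRNA. BIRC3 was lower in all 4 (log2 -0.64, SE 0.29, adjusted p 1 in limma, 0.249 with the block). TNFAIP2 had -0.28, NFKB1 0.14 and RELB -0.13.

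With EIF2AK2 unread, genes around its substrate were the nearest to it. Of 11 symbols for the other eIF2alpha kinases, eIF2 and its exchange factor eIF2B, 7 had a probe set and 6 were tested. The tested genes were all of eIF2 and eIF2B, and no kinase was among them. EIF2AK3, the only kinase with a probe set, was below the limit (mean log2 3.84). It was lower in all 4 within-set comparisons (log2 -0.29, not tested). All 6 were above 0 over both fractions, beside 54.9% of all probe sets tested. Their median was 0.13, against 0.03 over all, and 0 were called. EIF2S1, which encodes eIF2alpha, had a log2 fold change of 0.36 (SE 0.22) and was higher in all 4 comparisons. EIF2B1 had 0.30, EIF2S2 0.15 and EIF2B3 0.10, and EIF2B3 was lower in 3 of the 4 within-set comparisons. Without the cytoplasmic RHA siRNA array of set 1, with the block, 3 of the 6 were above 0, against 4 to 6 with any other array left out.

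The pattern of the brightest OAS1 probe set was set against all other tested genes, after each set's arrays were centred. The 3 most alike over the 8 arrays were ABCD4 (Pearson's r 0.995), TMEM245 (0.984) and PNISR (0.982). None of the 3 belongs to the lists above. These r values are the highest over 8 arrays among tested probe sets with 1 other gene symbol, where 16072 tested probe sets had 1 symbol. They are given as a description.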

How the data were processed

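RNA of 8 COS cell samples in 4 groups of 2 was read on Affymetrix rhesus macaque arrays. The authors deposited linear intensity values, 1 for each probe set, which were taken as already normalised since array medians were close. Per the submitters' processing notes, the tools were GCOS and RMA, without versions or roles. Of 52865 probe sets 99 were controls. By the platform annotation, 24969 had 1 symbol, 361 several and 27535 none listed. The 26383 brighter of the 52766 others (50%) were tested on the log2 scale with limma 3.58.1 in R 4.3.3 (4 groups, lmFit and eBayes, two-sided, Benjamini-Hochberg over all tested, adjusted p under 0.05). The 5 contrasts were RHA against control siRNA in both fractions, polysomal and cytoplasmic RNA, the change in loading, and polysomal against cytoplasmic RNA.

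Members and lists were chosen with earlier results of these data known. All member probe sets were named, with DHX9, up to 4 genes of each list by smallest p, and the 3 genes most like the brightest member. TRIM21, DTX3L, IFIT3, IFI35, ISG20 and PARP12 (lower) and TRAF3 (higher) are also named as members of full sets that went one way in all 4 comparisons, and genes below the limit as found, after their values were seen.

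Replicate numbers come from titles. Deviations of same-numbered arrays from group means correlated (r 0.68 to 0.868), but with 2 numbers this was not taken as pairing; it was treated as a batch. No label states separate cultures, so p-values measure the spread between these arrays, which may be technical. Their number limits the precision. Alternatives were no filter, the brightest 25%, the replicate block, quantile normalization, an intensity trend in eBayes and each array left out; the interaction with set, within-set differences and the block with arrays left out were added after seeing the data. On simulated data with a difference between the sets, the fit with the block had to recover large added changes. The fit without the block was run there too, but with no such requirement. No detection calls, probe-level files or sequences were used here.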

Additional observations from a re-analysis of the deposited data

Results flagged for a closer look

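The siRNA effect went opposite ways in the 2 sets, on both fractions of each, for 3 member probe sets, beside 14.1% of all probe sets tested. ISG15 had a log2 difference of -0.74 in set 1 and 0.56 in set 2, and the interaction of siRNA with set had an adjusted p of 0.350 in limma. IRF3 probe set MmugDNA.21023.1.S1_at had 0.28 in set 1 and -0.27 in set 2 (adjusted p 0.643). For IRF1 the values were -0.24 and 0.11 in sets 1 and 2 (adjusted p 0.745).

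In 2 further member probe sets the effect went opposite ways in the fractions, in both sets, beside 9.04% of all. The second brightest OAS1 probe set had 0.23 in polysomal RNA (0.0036 and 0.45 in the sets) and -0.70 in cytoplasmic RNA. MX1 had -0.050 in polysomal RNA and 0.27 in cytoplasmic RNA. The difference between fractions had an adjusted p of 1 in limma for both.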

How the results depend on the processing

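The count of probe sets called was 0 in each of the 5 contrasts and stayed 0 under every alternative, except that the replicate block gave 2 over both fractions; neither was a member. No member gene was called under any alternative: of 40 log2 fold changes (8 genes in 5 contrasts, each gene by its brightest probe set), the lowest adjusted p in limma was 0.242 with the block and 0.944 with an array left out. With the block and an array left out, an alternative added after seeing the data, it was 0.147 for those 8 probe sets in the 3 siRNA contrasts, and 0.131 for the second brightest OAS1 probe set in cytoplasmic RNA. The filter, the block and the trend turned no direction; at the brightest 25% only 25 values could be had. Quantile normalization turned 5: IRF3 over both fractions (-0.052), ISG15 in cytoplasmic RNA (-0.035), IRF1 in the change in loading (0.076), and OAS1 (-0.078) and IRF3 (-0.030) in polysomal against cytoplasmic RNA. Leaving out 1 array without the block turned 6 to 10 of the 40. With the block it turned 1 to 6 of 24, and over both fractions OAS1, IFIH1 and MX1 kept their direction whichever array was left out; the cause was not tested. Ranges without the block follow for values that turned. Over both fractions the ranges were ISG15 -0.54 to 0.36, IFIT1 -0.38 to 0.34, TLR3 -0.74 to 0.39, IRF3 -0.39 to 0.40 and IRF1 -0.24 to 0.11. In polysomal RNA the ranges were OAS1 -0.0033 to 0.81, IFIH1 -0.69 to 0.10, ISG15 -1.08 to 0.50, MX1 -0.16 to 0.063, IFIT1 -0.0052 to 0.52, TLR3 -0.72 to 1.00, IRF3 -0.995 to 0.59 and IRF1 -0.35 to 0.21. In cytoplasmic RNA the ranges were ISG15 -0.78 to 1.00, IFIT1 -1.02 to 0.43, TLR3 -1.62 to 0.63, IRF3 -0.44 to 0.87 and IRF1 -0.41 to 0.29. For the change in loading the ranges were ISG15 -1.30 to 0.49, IFIT1 -0.17 to 1.28, TLR3 -0.49 to 1.76, IRF3 -1.21 to 0.38 and IRF1 -0.37 to 0.33. For polysomal against cytoplasmic RNA the ranges were OAS1 -0.14 to 0.27, ISG15 -0.51 to 0.38, MX1 -0.0014 to 0.11, IFIT1 -0.054 to 0.67, TLR3 -0.17 to 0.95 and IRF3 -0.29 to 0.50. Signal limits the rest: 2 OAS1 probe sets and set 1 of TLR3 lay below the limit of 19.9, where array brightness says little.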

Other observations

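TRAF3, an adaptor ubiquitin ligase of the RNA-sensing pathway, was picked after its values were seen. It had 52.2 and 144 in polysomal RNA under RHA siRNA, against 33.0 and 109 under control siRNA, and 39.6 and 149 in cytoplasmic RNA under RHA siRNA, against 19.6 and 91.2 under control siRNA. It was higher in all 4 within-set comparisons (log2 0.69, SE 0.76, adjusted p 1 in limma and 0.212 with the block), as 9.81% of all probe sets were. OAS3, a larger relative of OAS1 and also picked after its values were seen, was lower in polysomal RNA of both sets (log2 -1.44 and -1.04) and in cytoplasmic RNA of set 2 (-0.81), and higher in cytoplasmic RNA of set 1 (0.78). Its adjusted p over both fractions was 1 in limma and 0.396 with the block. Summed intensity of the 9 leukocyte markers found was 286 and 380 in polysomal RNA under RHA siRNA, 350 and 258 in polysomal RNA under control siRNA, 334 and 330 in cytoplasmic RNA under RHA siRNA, and 482 and 283 in cytoplasmic RNA under control siRNA.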
